A study of Mus musculus with 12 samples.

Results

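Molecular chaperones are proteins that help other proteins to fold, to stay soluble, to assemble and to be degraded. In the cytosol, Hsp70 and Hsp90 proteins work in ATP-driven cycles with J-domain (DnaJ) partners, which bring clients to Hsp70, and many of their genes are induced by heat shock factor 1 (Hsf1) when unfolded protein accumulates. The lumen of the endoplasmic reticulum and the mitochondrial matrix each hold their own Hsp70, and the reticulum set is induced through the unfolded protein response. Heart muscle is also rich in small heat shock proteins, which bind unfolded clients without ATP.

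The chaperone genes described here were the rows of the gene count table whose symbols began with Hspa, Hspb, Hspd, Hspe or Hsph followed by a digit, with Hsp90, or with Dnaj. This gave 72 of 24062 symbols. They comprised 13 Hsp70 genes (Hspa), 8 small heat shock protein genes (Hspb), 3 Hsp90 genes, the 2 chaperonin genes Hspd1 and Hspe1, the Hsp110 gene Hsph1, and 4 DnaJ A, 13 DnaJ B and 28 DnaJ C genes. By the known site of their proteins, 37 were grouped as cytosolic, 12 as reticulum, 8 as mitochondrial, 6 as vesicle and endosome and 3 as nuclear, and 6 were left unassigned. Some DnaJ C genes and Hspb11 share a domain or a name with chaperones without a settled role in folding.

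RNA was sequenced from heart samples of 12 mice in 4 groups of 3. Adult hearts came from 2-month-old mice that were wild-type (WT) or homozygous for a Lemd2 knock-in allele (KI/KI) carrying a T to G change at coding nucleotide 38. Lemd2 encodes a protein of the inner nuclear membrane. Postnatal day 1 (P1) hearts came from pups with both Lemd2 alleles floxed around exon 1, either without Cre (floxed) or with Cre under the cardiomyocyte promoter Myh6 (cKO), so that other heart cells kept the floxed alleles. The founders were made in B6C3F1 zygotes and bred to C57BL/6N. Because heart tissue with its mixed cells was used, fewer cells of a type and less RNA per cell cannot be told apart.

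Total counts lay between 37063669 and 44789753 per library. Lemd2 itself was at 24.4 to 25.3 CPM (counts scaled to library size) in the floxed hearts and 6.63 to 13.1 CPM in the cKO hearts, and at 31.9 to 34.8 CPM in WT and 24.8 to 25.6 CPM in KI/KI hearts. CPM here were normalised over all 12 libraries. Some libraries stood apart: cKO 4 held 4 counts over 4 Y-linked genes against 9162 to 14996 in the other 11, cKO 6 had the highest sum of proliferation markers (1329 CPM against 340 to 653 in the other P1 hearts), and KI/KI 5 had the lowest sum of cardiomyocyte markers among the adult hearts (75200 CPM against 91571 to 112549). Lung epithelial markers summed to 23.5 to 104 CPM in WT 3, KI/KI 4, floxed 1, floxed 2 and cKO 4 and to 0.519 to 3.97 CPM in the others.

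Genes with at least 10 counts in at least 3 libraries of a comparison were tested. Dnajb8, Dnajc5b, Dnajc5g and Hspb9 failed this minimum in every comparison, with at most 2, 11, 2 and 13 counts in any heart. Dnajb3 and Dnajc22 failed it in the adult comparison, with at most 12 and 8 counts. This left 66 chaperone genes in the adult genotype comparison and 68 in each of the others. Dnajb7 between the P1 groups, and Dnajb3 and Dnajc22 between the ages, passed only through the group in which they were higher.

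Per kilobase of exon, which allows levels of different genes to be set side by side, the highest chaperone transcripts in adult WT hearts were Hspb7 at 931 ± 139 CPM per kb (SD, n = 3), Hsp90ab1 at 693 ± 37.6 and Hspb6 at 652 ± 64.4. Hspb7 and Hspb6 encode small heat shock proteins of striated muscle, and Hsp90ab1 the constitutive cytosolic Hsp90. The mitochondrial Hsp70 gene Hspa9 followed at 382 ± 34.4, the constitutive cytosolic Hsp70 gene Hspa8 at 380 ± 39.6 and Hspb8 at 323 ± 15.8. Hsp90ab1 and Hspb6 did not differ beyond their spread, nor did Hspa9 and Hspa8. In P1 floxed hearts the order began with Hsp90ab1 at 537 ± 24.0 CPM per kb, Hspb7 at 416 ± 22.5, Hspa9 at 267 ± 19.9 and Hspa8 at 253 ± 25.4, and Hspb6 stood at 97.5 ± 14.9.

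Promoter windows are shown for some genes that carry elements through which heat shock factors and the unfolded protein response are known to act. RefSeq promoter windows (GRCm38.p6) ran from 250 bases before to 50 after a gene's start. They were at hand for 58 of the 72 genes, in 75 windows. Genes without a window included Hsp90aa1, Hsp90ab1, Hspa8 and Hspa9. The endoplasmic reticulum stress element, CCAAT and CCACG with 9 bases between them on either strand, was in 0.119% of all 32851 windows and in those of Hspa5, Hsp90b1 and Dnajc3. Its second form, ATTGG and CCACG with 1 base between them on either strand, was in 0.0365% of all windows and in that of Dnajb11. These 4 genes encode the reticulum Hsp70 (BiP), the reticulum Hsp90 (GRP94) and 2 reticulum J-domain partners of BiP. The windows below are written 5′ to 3′ on the gene's strand, with the element in capitals.
Hspa5, chr2:34772020-34772049, plus strand: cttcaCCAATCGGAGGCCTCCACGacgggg
Hsp90b1, chr10:86705632-86705661, minus strand: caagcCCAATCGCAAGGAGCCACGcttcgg
Hsp90b1, chr10:86705527-86705556, minus strand: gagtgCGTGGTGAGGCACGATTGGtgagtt
Dnajc3, chr14:118937822-118937851, plus strand: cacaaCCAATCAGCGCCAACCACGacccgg
Dnajb11, chr16:22857843-22857872, plus strand: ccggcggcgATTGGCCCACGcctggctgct

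A heat shock element is built from GAA units in alternating orientation. A pair of units written GAANNTTC was in 7.86% of all windows and in those of 14 of the 58 chaperone genes, and the pair written TTCNNGAA in 8.52% of all windows and in those of 6. A run of 3 units, GAA, TTC and GAA with 2 bases between neighbours on either strand, was in 0.603% of all windows and in those of Dnajb6, Hspd1, Hspe1 and Hsph1, and overlaps the pairs. Hspd1 and Hspe1 are transcribed away from each other from a shared stretch, so that their elements overlap. The windows of the inducible Hsp70 genes Hspa1a and Hspa1b were identical over the 30 bases shown, with the element starting 104 bases before the start of each. A match is only a description of the letters present.
Hspa1a, chr17:34972242-34972271, minus strand: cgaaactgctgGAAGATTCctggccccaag
Hspa1b, chr17:34959324-34959353, minus strand: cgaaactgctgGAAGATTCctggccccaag
Hspb1, chr5:135887811-135887840, plus strand: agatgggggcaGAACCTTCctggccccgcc
Hsph1, chr5:149636279-149636308, minus strand: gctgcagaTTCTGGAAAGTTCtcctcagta
Dnajb6, chr5:29735844-29735873, plus strand: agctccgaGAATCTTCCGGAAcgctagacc
Hspe1, chr1:55088056-55088085, plus strand: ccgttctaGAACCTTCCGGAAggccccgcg

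The likeness of Hspa1a and Hspa1b extends to their transcripts. Of the distinct stretches of 75 bases, the read length, in GENCODE transcripts of Hspa1a, 61.7% also occurred in transcripts of another gene, and 55.8% of those of Hspa1b, each time led by the other of the pair. Hspa1l, the neighbouring Hsp70 gene, shared 71.1%, mostly with Gm10501, which overlaps it on the opposite strand over 1778 exonic bases. Hsp90aa1 (42.8%), Hspb1 (46.4%), Hspa8 (33.0%) and Hspd1 (31.0%) shared stretches with pseudogenes, Dnaja4 (42.0%) with Wdr61 and Hspb2 (21.4%) with Cryab on the opposite strand. How such reads and strand were treated in counting is not given in the sources used here, so the counts of these genes, and above all the split between Hspa1a, Hspa1b and Hspa1l, are uncertain.

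In P1 hearts lacking Lemd2 in cardiomyocytes, the genes that were higher included Hspa1a, Hspa1b, Hsp90aa1 and the reticulum genes Hspa5 and Hsp90b1. Hspa8, Hsp90ab1, Dnajb1 and the genes grouped as mitochondrial were not called. By edgeR's quasi-likelihood test with Benjamini-Hochberg adjustment over all genes, 18 of 68 chaperone genes passed an adjusted p of 0.05, against 16.4% of all 15392 genes tested. Of these 16 were higher in cKO hearts, against 9.15% of all genes, and 2 were lower, against 7.23%. A fold above 2 as well held for 5 genes, against 4.46% of all genes, with 4 higher (2.78%) and 1 lower (1.68%). On the scale of these 6 hearts the groups did not overlap for 29 chaperone genes, against 39.7% of all genes. The median log2 fold change over the 68 was 0.11, and over all genes it was -0.0046.

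**Figure D1:**
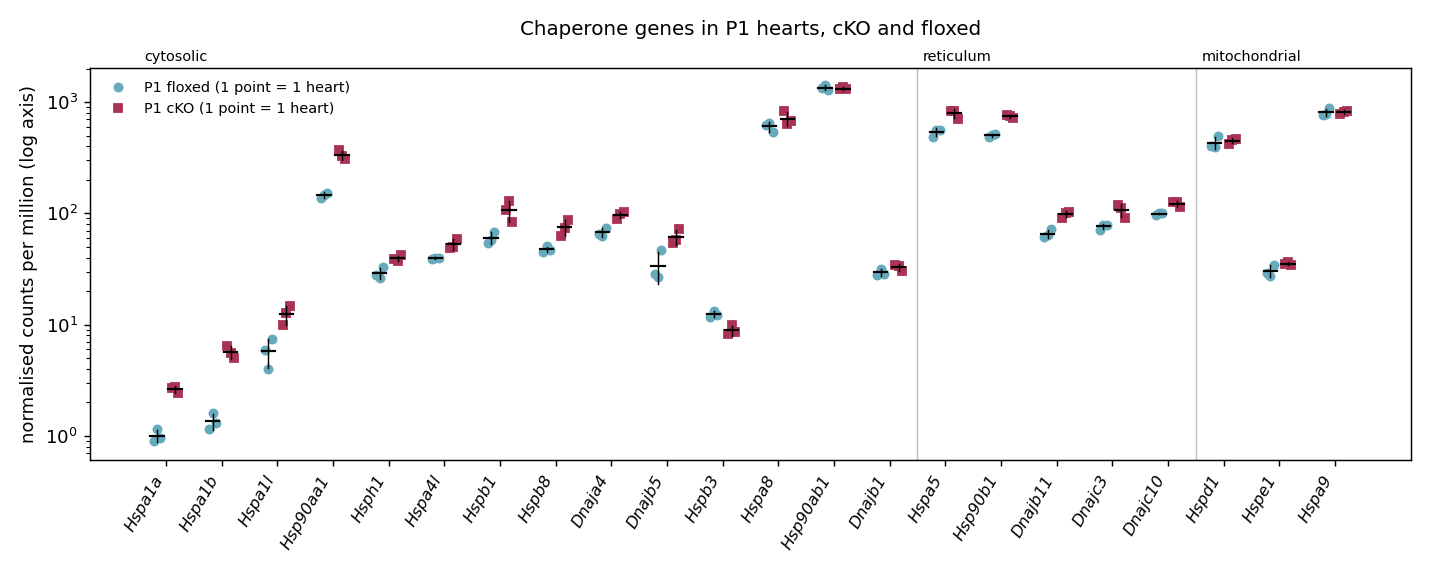
Normalised CPM (log axis) of 22 chaperone genes in the 3 floxed and 3 cKO hearts at P1. Each point is 1 heart, and the lines are the mean and SD. Hspa1b stood at 1.15 to 1.59 CPM in floxed and 4.96 to 6.43 CPM in cKO hearts, whereas Hspa9 overlapped between the groups.

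The largest increase was in Hspa1b, an inducible Hsp70 gene. Hspa1b was at 1.15, 1.59 and 1.29 CPM in floxed hearts 1 to 3 and at 6.43, 5.57 and 4.96 CPM in cKO hearts 4 to 6. All cKO hearts were above all floxed hearts, and the log2 fold change was 2.07 ± 0.21 (SE, adjusted p = 0.00552). Hspa1a, its near copy, was at 0.906, 1.16 and 0.955 CPM in floxed and 2.71, 2.75 and 2.42 CPM in cKO hearts (1.38 ± 0.21, adjusted p = 0.0108). These were low levels, with 40 to 73 counts of either gene per floxed heart and 100 to 320 per cKO heart. Hspa1l was at 5.86, 3.97 and 7.36 CPM in floxed and 9.83, 12.7 and 14.6 CPM in cKO hearts (1.11 ± 0.25, adjusted p = 0.0291).

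Of the cytosolic Hsp90 genes, the inducible one moved and the constitutive one did not pass the test. Hsp90aa1 was at 138, 148 and 154 CPM in floxed and 369, 325 and 306 CPM in cKO hearts, so the groups were far apart (1.19 ± 0.10, adjusted p = 0.00495). Hsp90ab1 was at 1355, 1415 and 1294 CPM in floxed and 1312, 1363 and 1302 CPM in cKO hearts, which overlap (-0.03 ± 0.08, adjusted p = 0.81). The same contrast held between the Hsp70 genes, since Hspa8 was at 624, 655 and 538 CPM in floxed and 832, 631 and 672 CPM in cKO hearts (0.23 ± 0.14, adjusted p = 0.28). The cKO 5 value of Hspa8 lay within the floxed range.

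Of the 3 Hsp110-type exchange factors of cytosolic Hsp70, Hsph1 and Hspa4l passed the test and Hspa4 did not (0.36 ± 0.10, adjusted p = 0.0551). Hsph1 was at 28.2, 26.4 and 32.8 CPM in floxed and 39.0, 37.3 and 42.0 CPM in cKO hearts (0.44 ± 0.10, adjusted p = 0.0342). Its relative Hspa4l rose from 38.7 to 40.1 CPM over the floxed hearts to 49.1 to 59.2 CPM over the cKO hearts (0.42 ± 0.09, adjusted p = 0.0243). Among J-domain partners, Dnajb5 and Dnaja4 passed. Dnajb5 was at 28.5, 26.9 and 46.5 CPM in floxed and 54.4, 58.2 and 72.1 CPM in cKO hearts (0.86 ± 0.22, adjusted p = 0.0421). Dnaja4 rose from at most 74.2 CPM to at least 89.8 CPM (0.53 ± 0.09, adjusted p = 0.0137). Other J-domain partners did not pass: the log2 fold change was 0.16 ± 0.10 for Dnajb1, -0.04 ± 0.10 for Dnaja1, 0.21 ± 0.12 for Dnajb4 and 0.06 ± 0.12 for Dnajb6. Hspa2, an Hsp70 best known from the testis, was at 0.22 ± 0.17.

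The small heat shock proteins did not move together. Hspb1 (Hsp25) was at 54.2, 57.5 and 68.5 CPM in floxed and 108, 129 and 83.8 CPM in cKO hearts (0.83 ± 0.17, adjusted p = 0.0228). Hspb8, which works with Bag3 in the removal of misfolded protein, was at 45.4, 50.6 and 46.6 CPM in floxed and 62.4, 74.5 and 88.0 CPM in cKO hearts (0.65 ± 0.12, adjusted p = 0.0176). Hspb3 fell, from 11.8, 13.3 and 12.2 CPM to 8.20, 9.88 and 8.49 CPM (-0.49 ± 0.12, adjusted p = 0.0367). The muscle-rich Hspb6 (0.02 ± 0.24), Hspb7 (0.01 ± 0.14) and Hspb2 (0.05 ± 0.16) overlapped between the groups.

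In the reticulum, 5 of 12 genes passed the test, all higher, against 9.15% of all genes, and the median log2 fold change was 0.27. Hspa5 (BiP) was at 486, 563 and 562 CPM in floxed and 840, 834 and 712 CPM in cKO hearts (0.57 ± 0.11, adjusted p = 0.0189). Hsp90b1 (GRP94) was at 486, 506 and 518 CPM in floxed and 768, 752 and 726 CPM in cKO hearts (0.57 ± 0.08, adjusted p = 0.0079). Both genes were thus above the floxed range in every cKO heart. The BiP partners followed: Dnajb11 was at 61.7, 63.5 and 71.8 CPM in floxed and 91.7, 101 and 102 CPM in cKO hearts (0.58 ± 0.08, adjusted p = 0.0091). Dnajc3, an inhibitor of the kinase PERK and BiP partner, was at 71.2, 79.1 and 78.8 CPM in floxed and 118, 113 and 91.3 CPM in cKO hearts (0.49 ± 0.12, adjusted p = 0.035). Dnajc10, a disulphide reductase, rose by less (0.30 ± 0.08, adjusted p = 0.0459). Apart from Dnajc10, these genes hold the reticulum stress elements shown above, but a part of the elements in the differences was not tested. Of the genes with a run of 3 heat shock units, Hsph1 passed, and Hspd1, Hspe1 and Dnajb6 did not. Dnajb9, another BiP partner, was at 0.25 ± 0.16 (adjusted p = 0.317), Hspa13 at 0.32 ± 0.10 (adjusted p = 0.0697), and the remaining 5 lay between -0.08 and 0.12.

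None of the 8 mitochondrial chaperone genes passed the test (edgeR), and none did at an unadjusted p under 0.05, which 34.2% of all genes reached. Their median log2 fold change was -0.03. The matrix Hsp70 gene Hspa9 was at 770, 791 and 884 CPM in floxed and 784, 824 and 839 CPM in cKO hearts (0.00 ± 0.08). The chaperonin Hspd1 (0.06 ± 0.10) and its lid Hspe1 (0.22 ± 0.10, adjusted p = 0.18) and the matrix J-domain protein Dnaja3 (-0.11 ± 0.14) did not pass either. Hspe1 was at 29.2, 27.5 and 34.5 CPM in floxed and 34.9, 36.7 and 34.6 CPM in cKO hearts, where the groups nearly touch. The medians of the 3 compartments were 0.21 in the cytosol, 0.27 in the reticulum and -0.03 in mitochondria, beside -0.0046 over all genes. In the cytosol 10 of 35 genes were higher, against 9.15% of all genes, and 1 was lower, against 7.23%. The 3 nuclear and 4 tested vesicle genes did not pass.

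**Figure D2:**
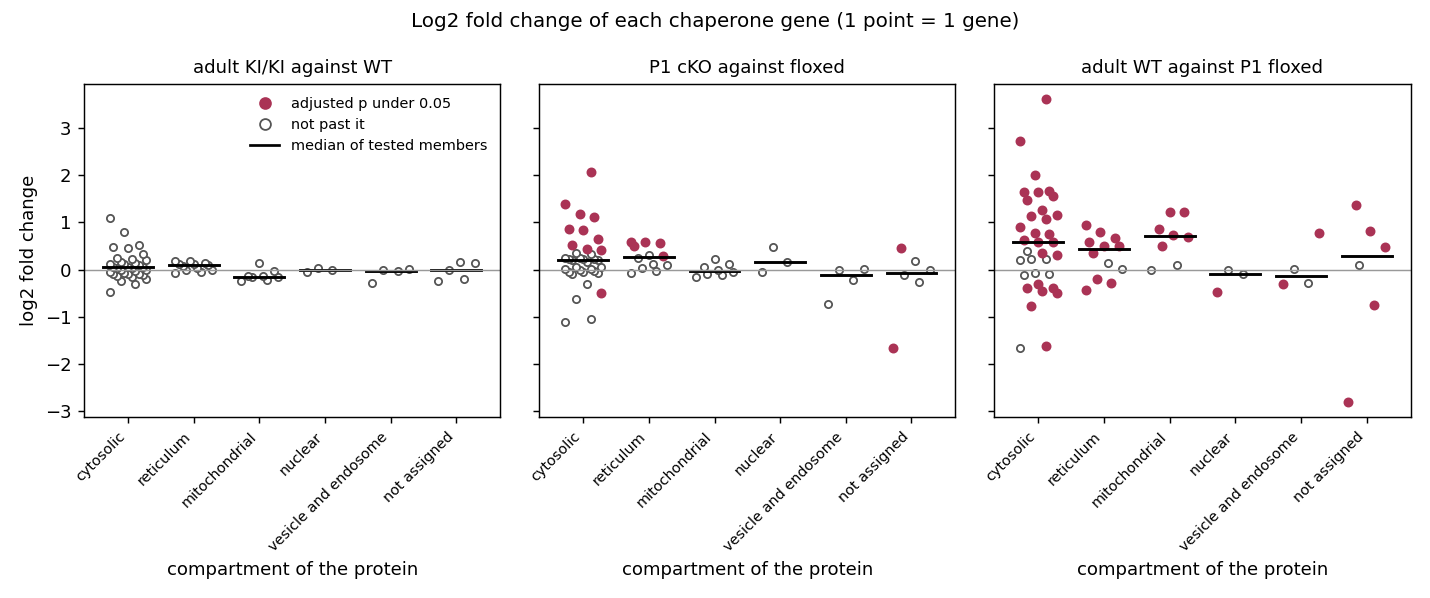
Log2 fold change of every tested chaperone gene (1 point each) by the compartment of its protein in the 3 comparisons. Filled points passed an adjusted p of 0.05 and bars are medians. In P1 cKO hearts filled points lie in the cytosolic, reticulum and unassigned groups and none among the 8 mitochondrial genes, and in adult KI/KI hearts no point is filled.

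Among genes with no assigned compartment, Dnajc28, a J-domain gene of little-known function, showed the largest decrease. It was at 42.2, 33.5 and 22.7 CPM in floxed and 10.7, 9.61 and 10.9 CPM in cKO hearts (-1.66 ± 0.23, adjusted p = 0.00869). Dnajc25 was at 14.3, 15.9 and 17.8 CPM in floxed and 23.0, 22.3 and 20.5 CPM in cKO hearts (0.46 ± 0.11, adjusted p = 0.0391). The unfolded protein response element TGACGTGG was in 0.676% of all windows and in 1 of the 75 chaperone windows, that of Dnajc25. A link between the element and the difference was not tested. The stretch around the element is given next.
Dnajc25, chr4:59003133-59003162, plus strand: gcgcggcctgcTGACGTGGaccgggctgcg

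Genes of the same pathways outside the chaperone families were read from lists. In cKO hearts 16 of 25 genes of reticulum folding and the unfolded protein response were higher, against 9.15% of all genes, and 1 was lower, against 7.23%, and the list's median was 0.45 on the log2 scale. The nucleotide exchange factor of BiP, Hyou1, rose by 0.56 ± 0.10 (adjusted p = 0.0146), the BiP cofactor Sdf2l1 by 0.76 ± 0.17 (adjusted p = 0.0277), and the secreted factor Manf, at 38.8 to 51.5 CPM in floxed and 76.8 to 95.6 CPM in cKO hearts, by 0.94 ± 0.13 (adjusted p = 0.00869). The transcription factor Xbp1 rose by 0.53 ± 0.13 (adjusted p = 0.0329), Ddit3 (CHOP) was at 0.26 ± 0.14 (adjusted p = 0.233), and Herpud1, a degradation factor, was lower (-0.83 ± 0.19, adjusted p = 0.0295). Pdia6 (0.75 ± 0.13) and P4hb (0.72 ± 0.11), both disulphide isomerases, rose as well. Of 30 cytosolic co-chaperones 2 were higher and 2 lower, a share no larger than the 16.4% of all genes. The small heat shock protein Cryab rose by 0.51 ± 0.12 and the myosin chaperone Unc45b fell by 0.48 on the log2 scale (SE 0.11). Bag5 was at 0.33 ± 0.09 and Cdc37l1 at -0.27 ± 0.07. Bag3 was at 0.10 ± 0.10 and Fkbp5, an Hsp90 co-chaperone, at 1.03 ± 0.32 (adjusted p = 0.0668).

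Of 13 subunits of the cytosolic chaperonin CCT and prefoldin 3 were higher, against 9.15% of all genes. These were Cct8 (0.48 ± 0.09), Pfdn1 (0.34 ± 0.08) and Tcp1 (0.31 ± 0.08). Of 13 genes of mitochondrial import, folding and proteolysis 1 passed, against 16.4% of all genes. It was the protease subunit Clpx, which was lower (-0.52 ± 0.07). Trap1, the mitochondrial Hsp90, was at -0.20 ± 0.14. None of the 4 tested genes of a list of heat shock factors and their regulators passed by edgeR. Hsf2 alone was at an unadjusted p under 0.05. Hsf1 was at 0.22 ± 0.11 (adjusted p = 0.193) and Hsf2 at -0.27 ± 0.09 (adjusted p = 0.0932).

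Other marker lists moved with the cKO genotype, beside 9.15% of all genes called higher and 7.23% lower. The 10 immediate early genes were all higher, 8 of them past the test, and summed to 194 to 229 CPM in floxed and 426 to 478 CPM in cKO hearts. The 9 macrophage genes in the table were all higher (5 past the test, 121 to 143 against 161 to 294 CPM), as were the 8 proliferation genes (3 past the test, 340 to 469 against 540 to 1329 CPM). Cardiomyocyte genes were lower for 8 of 10 (4 past the test, 56811 to 65743 against 47944 to 52766 CPM). Of the 10 fibroblast genes 7 were at positive log2 fold changes (3 past the test, 6460 to 7283 against 8621 to 9437 CPM), and so were 7 of the 10 endothelial genes (2 past the test, 2006 to 2100 against 2306 to 2508 CPM). No gene of these 6 lists was at 0 in a P1 heart, and the part of these shifts in the chaperone differences was not tested.

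The count of 18 depended on single libraries, as did the share of all genes called. It was 3 without floxed 1 (2.03% of all genes), 6 without floxed 2 (4.8%) and 5 without cKO 5 (3.14%). It was 15 without floxed 3 (10.8%), 13 without cKO 4 (13.6%) and 18 without cKO 6 (22.1%). Hspa1b, Hsp90aa1 and Dnajc28 passed in all 6 of these fits, Dnajb11 and Hsp90b1 in 5, and Hspa1a in 4. Hspa5, Hspb1, Dnaja4 and Hspa1l passed in 3, Hspa4l, Hsph1, Hspb8 and Dnajc25 in 2, Dnajc3, Dnajc10 and Dnajb5 in 1, and Hspb3 in none. With Y-linked expression as a covariate, 12 chaperone genes passed, with 10.2% of all genes.

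In adult hearts no chaperone gene passed the test between KI/KI and WT (edgeR), and neither did any of the 14670 genes tested (0%). At an unadjusted p under 0.05 there were 14 of 66 chaperone genes, against 15.9% of all genes. Of these 11 were higher (8.72% of all genes) and 3 lower (7.18%), and the groups did not overlap for 14, against 22.3% of all genes. DESeq2 called 3, Hsph1, Hsp90aa1 and Hspb1, all higher, against 3.59% of all genes. The median log2 fold change was 0.04 in the cytosol, 0.09 in the reticulum and -0.15 in mitochondria, beside 0.0021 over all genes.

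**Figure D3:**
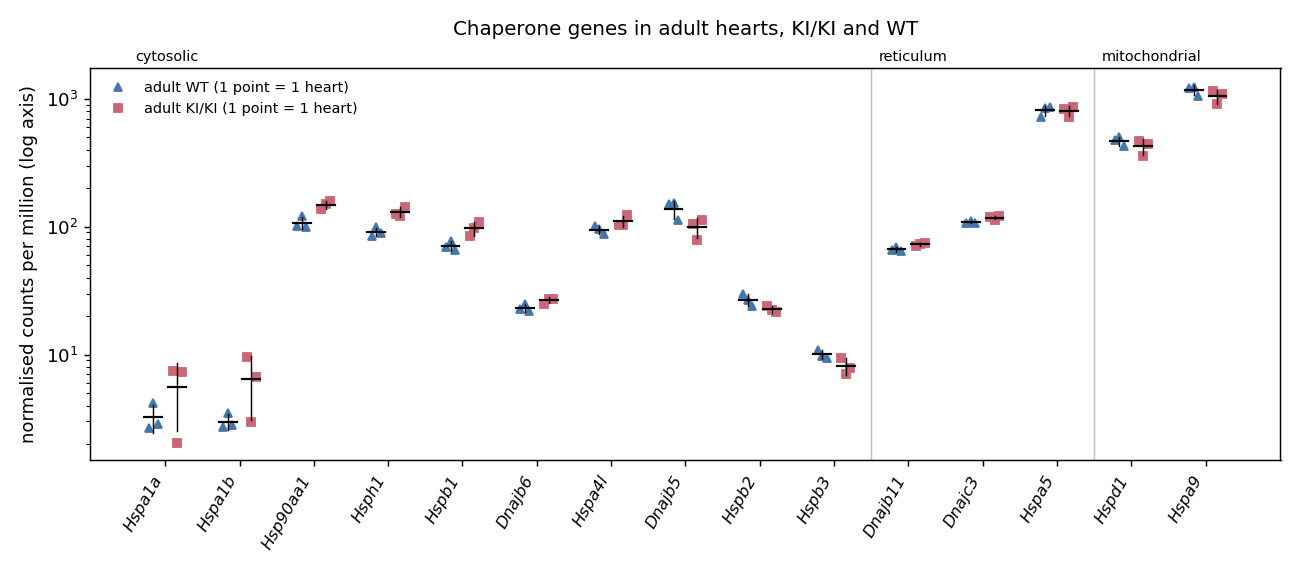
Normalised CPM (log axis) of 15 chaperone genes in the 3 WT and 3 KI/KI hearts at 2 months. Each point is 1 heart, and the lines are the mean and SD. Hsph1, Hsp90aa1 and Hspb1 do not overlap between the groups, and Hspa1a and Hspa1b have 1 KI/KI heart, KI/KI 5, within or below the WT range.

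Hsph1 was at 85.0, 98.8 and 89.7 CPM in WT hearts 1 to 3 and at 125, 122 and 143 CPM in KI/KI hearts 4 to 6 (0.52 ± 0.09, unadjusted p = 0.000536, adjusted p = 0.186, edgeR). Hsp90aa1 was at 101, 120 and 99.6 CPM in WT and 137, 149 and 159 CPM in KI/KI hearts (0.48 ± 0.09, adjusted p = 0.191). Hspb1 was at 69.4, 77.4 and 65.1 CPM in WT and 84.5, 98.1 and 108 CPM in KI/KI hearts (0.47 ± 0.11, adjusted p = 0.205). Each KI/KI heart was above each WT heart for these 3 genes.

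The inducible Hsp70 genes differed from heart to heart. Hspa1b was at 2.7, 3.48 and 2.81 CPM in WT and 9.58, 2.99 and 6.63 CPM in KI/KI hearts (1.09 ± 0.40, adjusted p = 0.278). Hspa1a was at 2.66, 4.15 and 2.86 CPM in WT and 7.38, 2.05 and 7.30 CPM in KI/KI hearts (0.79 ± 0.47, adjusted p = 0.426). KI/KI 5 was at WT level or below it in both. Without it the log2 fold changes were 1.44 ± 0.21 and 1.19 ± 0.21, with adjusted p = 0.246 and 0.264 (edgeR). These were the highest of the 6 fits that each left out 1 heart. Over those fits Hspa1b ranged from 0.687 to 1.4391 and Hspa1a from 0.5365 to 1.1903, and neither passed in any.

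Groups were apart for 21.2% of the chaperone genes, no larger a share than the 22.3% of all genes. None passed the adjusted test by edgeR, so the following values are descriptive only. Smaller values with groups apart were those of Hspa4l (0.22 ± 0.09), of Dnajc2 (0.24 ± 0.06), a ribosome-bound J-domain protein, and of Dnajb6 (0.21 ± 0.07), which prevents aggregation. In the reticulum Dnajc10 (0.19 ± 0.06), Hspa13 (0.19 ± 0.07), Dnajb11 (0.14 ± 0.05) and Dnajc3 (0.12 ± 0.05) were apart in the same direction. Hspa5 was not: it was at 724, 844 and 860 CPM in WT and 825, 720 and 866 CPM in KI/KI hearts (0.00 ± 0.11), and Hsp90b1 (0.10 ± 0.10) and Dnajb9 (-0.07 ± 0.10) overlapped too.

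Dnajb5 had the largest negative log2 fold change. It was at 149, 152 and 112 CPM in WT and 106, 79.1 and 113 CPM in KI/KI hearts, so that WT 3 and KI/KI 6 met (-0.47 ± 0.16, adjusted p = 0.27). Dnajc4 (-0.21 ± 0.07), Hspb2 (-0.24 ± 0.09) and Hspb3 (-0.30 ± 0.13) also had negative values. Scaled over the adult hearts alone, the groups were apart for all 4, whereas scaled over 12 hearts they were apart only for Dnajc4.

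The other fixed cytosolic genes lay between Dnajb1 at -0.17 ± 0.13 and Hsp90ab1 at 0.16 ± 0.09. Among them Hspa8 was at 0.09 ± 0.14, Dnaja1 at 0.11 ± 0.16, Dnaja4 at 0.15 ± 0.09, Dnajb4 at -0.01 ± 0.15, Hspa2 at -0.11 ± 0.17, Hspb6 at -0.01 ± 0.11, Hspb7 at 0.05 ± 0.13 and Hspb8 at 0.11 ± 0.08. In mitochondria 7 of 8 genes had negative values, none past an unadjusted p of 0.05 (edgeR, and 0 called by it after adjustment). Hspa9 was at -0.15 ± 0.12, Dnaja3 at -0.15 ± 0.12, Hspd1 at -0.13 ± 0.11 and Hspe1 at -0.03 ± 0.08.

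Of the 85 tested genes of the pathway lists none passed the adjusted test in adult hearts by edgeR. At an unadjusted p under 0.05 there were 8, against 15.9% of all genes, with 4 in each direction. Hsf1 was at -0.07 ± 0.06 and Hsf2 at -0.29 ± 0.07 (adjusted p = 0.211). Hyou1 (-0.01 ± 0.10), Xbp1 (0.05 ± 0.08), Sdf2l1 (0.10 ± 0.19), Ddit3 (0.06 ± 0.18), Cryab (0.08 ± 0.10), Bag3 (-0.07 ± 0.13) and Trap1 (-0.13 ± 0.10) were near 0. Unc45b was at -0.43 ± 0.13 (adjusted p = 0.241) and Fkbp5 at -0.99 ± 0.60, with WT values from 19.4 to 128 CPM. The 9 macrophage genes all had positive log2 fold changes (290 to 437 CPM in WT, 464 to 551 CPM in KI/KI hearts), as had the 10 fibroblast genes (2264 to 2691 against 2707 to 5078 CPM, median log2 fold change 0.50) and the 10 endothelial genes (1957 to 2389 against 2193 to 2669 CPM). The 10 cardiomyocyte genes all had negative ones (99036 to 112549 against 75200 to 100615 CPM). None in these 4 lists passed the adjusted test by edgeR, 5 macrophage, 3 fibroblast, 1 endothelial and 1 cardiomyocyte gene reached an unadjusted p under 0.05, and none was at 0. Their part in the chaperone values was not tested.

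The effects of the alleles were compared directly, as the KI/KI minus WT difference less the cKO minus floxed difference over all 12 hearts. Of 68 chaperone genes 4 passed (edgeR, adjusted p under 0.05), against 2.47% of 15842 genes, with 1 positive (1.28% of all genes) and 3 negative (1.19%). The difference was -0.72 ± 0.14 for Hsp90aa1 (adjusted p = 0.0309), -0.45 ± 0.10 for Dnajb11 (adjusted p = 0.048) and -1.33 ± 0.31 for Dnajb5 (adjusted p = 0.0493), so that the cKO value was the higher of the pair for each. It was 1.42 ± 0.28 for Dnajc28 (adjusted p = 0.033), whose KI/KI log2 fold change was -0.23 ± 0.14. The other reticulum genes Hsp90b1 (-0.48 ± 0.13, adjusted p = 0.0696) and Hspa5 (-0.58 ± 0.16, adjusted p = 0.0754) did not pass, nor did Hspb8 (-0.55 ± 0.16), Hspa1l (-1.15 ± 0.32) or Hsph1 (0.08, adjusted p = 0.795). Age, allele, the presence of Cre in cKO hearts and the cells affected differ together between these effects and cannot be told apart. The count was 0 without WT 1, WT 2, KI/KI 4, KI/KI 6, floxed 1, floxed 2 or cKO 5, and 1 without WT 3 or KI/KI 5.

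Between adult WT and P1 floxed hearts, which differ in age and in the Lemd2 allele and serve as controls in the comparisons above, most chaperone genes differed, as did most genes, and the small heat shock protein genes Hspb8 and Hspb6 had the largest increases. By edgeR 51 of 68 passed, against 64.5% of all 15267 genes. Of these 37 were higher in adults, against 31.3%, and 14 lower, against 33.2%. A fold above 2 as well held for 15 higher genes, against 13.3%, and 2 lower, against 13.9%. Both lower ones, Dnajb3 and Dnajc22, passed the count minimum only through the P1 group, so that nothing is read from them. The groups did not overlap for 53, against 70.9% of all genes.

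This balance rests on the scaling. With library totals alone the median log2 fold change of all genes was -0.4486, against -0.0448 with the TMM scaling used, and 24 chaperone genes were called higher and 25 lower. All 24 were among the 37, all 14 lower genes stayed lower, and none of the 51 was called in the opposite direction, while the 25 included Hsp90b1, Hspd1 and Dnajb11, uncalled with TMM. The medians by compartment, 0.58 in the cytosol, 0.43 in the reticulum and 0.71 in mitochondria, then became 0.17, 0.02 and 0.30, still above the shifted median of all genes.

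**Figure D4:**
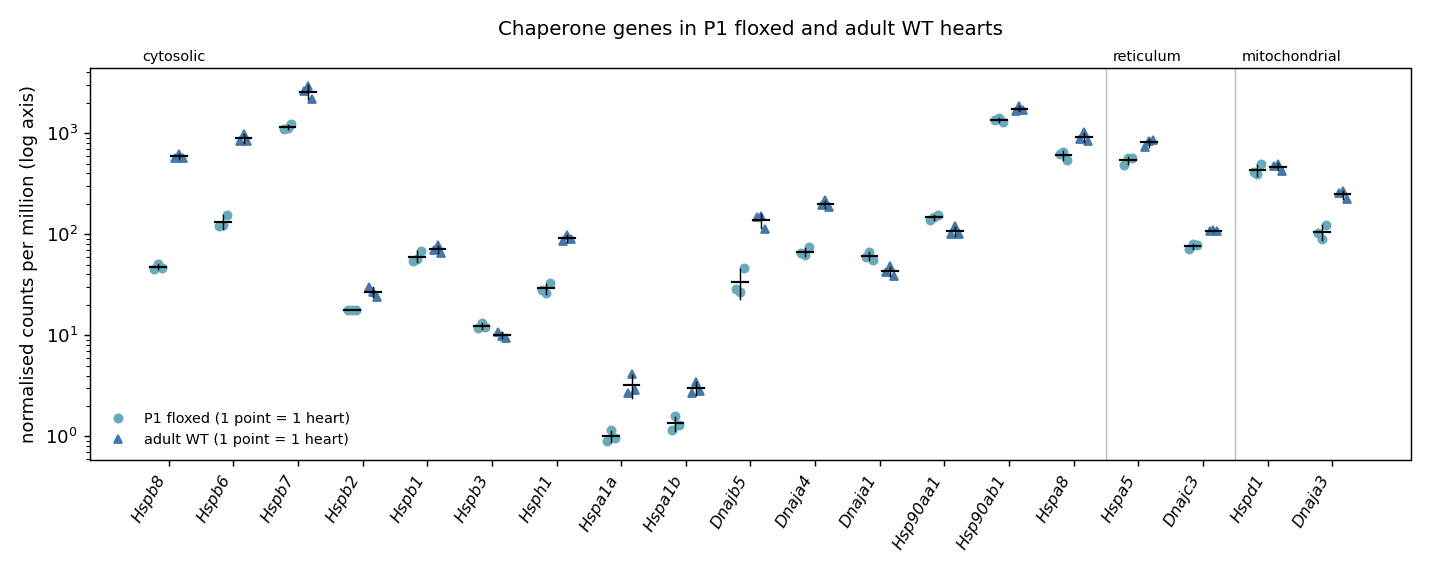
Normalised CPM (log axis) of 19 chaperone genes in the 3 P1 floxed and 3 adult WT hearts. Each point is 1 heart, and the lines are the mean and SD. Hspb8 rises from 45.4 to 50.6 CPM at P1 to 569 to 620 CPM in adults, and Dnaja1 and Hsp90aa1 fall.

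Hspb8 was at 45.4, 50.6 and 46.6 CPM in P1 floxed hearts and 569, 620 and 573 CPM in adult WT hearts, the largest log2 fold change of the family at 3.62 ± 0.08 (adjusted p = 1.85e-07). Hspb6 was at 119, 123 and 156 CPM at P1 and 834, 990 and 842 CPM in adults (2.74 ± 0.13, adjusted p = 2.35e-06). The groups were far apart in both genes. Hspb7 (1.16 ± 0.12) and Hspb2 (0.59 ± 0.10) rose by less. Hspb1 was at 54.2, 57.5 and 68.5 CPM at P1 and 69.4, 77.4 and 65.1 CPM in adults and did not pass (0.23 ± 0.11, adjusted p = 0.0937), and with library totals alone its value was -0.17. Hspb3 was lower in adults (-0.31 ± 0.10, adjusted p = 0.0254), as was Hspb11 (-0.76 ± 0.16), an intraflagellar transport subunit.

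Among cytosolic Hsp70 genes and their partners, the following were higher in adults. Hsph1 was at 28.2, 26.4 and 32.8 CPM at P1 and 85.0, 98.8 and 89.7 CPM in adults (1.64 ± 0.10), and Hspa4l rose by 1.25 ± 0.07. Dnajb5 was at 28.5, 26.9 and 46.5 CPM at P1 and 149, 152 and 112 CPM in adults (2.01 ± 0.24). Dnaja4 rose by 1.56 ± 0.09, Dnajb2 by 1.64 ± 0.13, Dnajb4 by 1.07 ± 0.12 and Dnajc21 by 0.89 ± 0.08. Hspa1a (1.67 ± 0.25), Hspa1b (1.15 ± 0.22) and Hspa1l (1.48 ± 0.25) were higher in adults at low levels, the highest WT value being 19.9 CPM for Hspa1l. Hspa8 rose by 0.58 ± 0.10. Hsp90ab1 rose by 0.36 ± 0.08 (adjusted p = 0.00478), but its value was -0.04 with library totals alone. Hspa2 (0.20 ± 0.16) and Dnajb6 (0.23 ± 0.11) did not pass, and their values were -0.21 and -0.18 with library totals alone.

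The genes that were lower in adults included Hsp90aa1 and several J-domain genes. Hsp90aa1 was at 138, 148 and 154 CPM at P1 and 101, 120 and 99.6 CPM in adults (-0.46 ± 0.09, adjusted p = 0.00256). Dnaja1 was at 59.6, 66.7 and 56.1 CPM at P1 and 42.3, 48.2 and 38.8 CPM in adults (-0.50 ± 0.10, adjusted p = 0.00226). Neither gene overlapped between the ages. Dnajc7, which binds Hsp70 and Hsp90, was at 195, 192 and 187 CPM at P1 and 113, 119 and 104 CPM in adults (-0.78 ± 0.07, adjusted p = 3.15e-05), and Dnajb1 (-0.39 ± 0.13), Hspa14 (-0.39 ± 0.09), the nuclear histone chaperone Dnajc9 (-0.47 ± 0.14) and the vesicle protein Dnajc5 (-0.32 ± 0.07) were lower too. Dnajb3, at 25 to 40 counts per P1 heart and 6 to 9 per adult heart, and Dnajc22, at 14 to 18 and at most 3 counts, are the 2 symbols of this direction that passed the minimum only through the P1 group.

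In the reticulum 7 of 12 genes were higher and 3 lower in adults, beside 31.3% and 33.2% of all genes. Dnajb9 was at 35.7, 39.8 and 31.6 CPM at P1 and 68.8, 74.5 and 64.8 CPM in adults (0.95 ± 0.09), Dnajc16 rose by 0.81 ± 0.07, Hspa5 by 0.59 ± 0.10 and Dnajc3 by 0.50 ± 0.07. Hspa13 was lower (-0.43 ± 0.06), with Dnajc10 and Dnajc14. Hsp90b1 (0.14 ± 0.09) and Dnajb11 (0.01 ± 0.08) did not pass, and were at -0.26 and -0.39 with library totals alone. 

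Of the mitochondrial chaperones 6 of 8 were higher in adults, against 31.3% of all genes. Dnaja3 was at 102, 89.5 and 123 CPM at P1 and 257, 264 and 222 CPM in adults (1.23 ± 0.13). Dnajc30, linked to the ATP synthase, rose by 1.23 ± 0.10, the import motor subunit Dnajc19 by 0.87 ± 0.09, Hspe1 by 0.69 ± 0.11 and Hspa9 by 0.51 ± 0.10. Hspd1, which shares its promoter stretch with Hspe1, was at 408, 397 and 494 CPM at P1 and 471, 499 and 424 CPM in adults (0.10 ± 0.11, adjusted p = 0.46, and -0.31 with library totals alone). Dnajc28 (1.38 ± 0.20) and Dnajc25 (0.81 ± 0.11), both unassigned, rose as well. Of the 4 tested vesicle genes 1 was higher, Dnajc27 (0.77 ± 0.17), and 1 lower, and of the 3 nuclear genes only Dnajc9 passed.

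**Figure D5:**
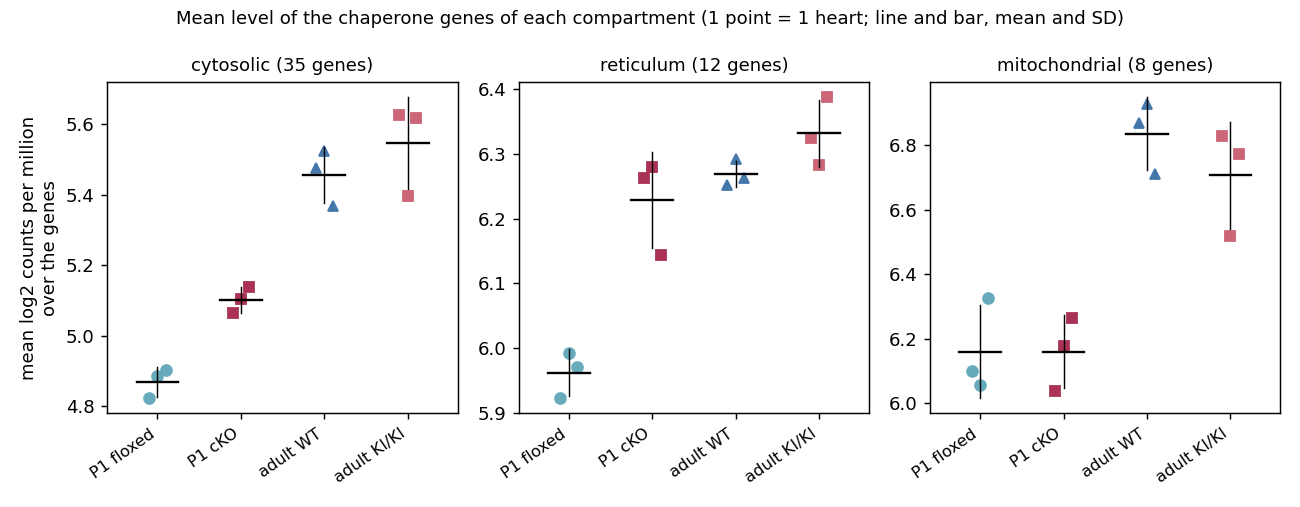
Mean log2 CPM per heart over the chaperone genes of each compartment in the 4 groups (1 point a heart, lines the mean and SD, axes cut to the range of each panel). P1 cKO hearts lie above floxed hearts in the cytosolic and reticulum panels and overlap them in the mitochondrial panel.

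The lists of partner genes were divided by age as well, beside 31.3% of all genes higher and 33.2% lower. Of 13 CCT and prefoldin subunits 9 were lower and 2 higher in adults, with Cct2 at -0.58 ± 0.07 and Cct6a at -0.47 ± 0.08. Of 30 co-chaperones 15 were higher and 2 lower: Bag3, the partner of Hspb8, rose by 1.94 ± 0.12, Cryab by 1.94 ± 0.09 and Fkbp4 by 1.34 ± 0.11, and Fkbp5 was at 1.19 ± 0.66. Of the mitochondrial list 11 of 13 were higher, among them Atf5 (1.52 ± 0.09), Spg7 (0.90 ± 0.07), Lonp1 (0.88 ± 0.08) and Trap1 (0.44 ± 0.09). In the reticulum list 12 were higher and 4 lower of 25, with Herpud1 at 1.72 ± 0.26, Atf6 at 0.91 ± 0.08 and Ddit3 at 0.73 ± 0.18. Among the factors, Hsf4 rose by 3.00 ± 0.27 and Hsf1 by 0.75 ± 0.08, whereas Hsf2 was lower (-0.57 ± 0.08). All 10 cardiomyocyte genes were higher in adults (9 past the test, 99036 to 112549 against 56811 to 65743 CPM) and all 8 proliferation genes lower (8 past the test, 33.7 to 66.1 against 340 to 469 CPM), none of them at 0, and their part in the chaperone differences was not tested.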

How the data were processed

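Polyadenylated heart RNA was sequenced from 12 mice in 4 groups of 3, single end on a NextSeq 500. Per the labels and the study's methods the authors trimmed reads (Trim Galore), estimated library quality with Bowtie2 2.3.4.3, aligned reads with STAR 2.7.2b to mm10, sorted alignments with SAMtools 1.9, and deposited raw counts per gene from HTSeq. Its strand and multi-read settings are not given in the sources used here. The deposited table holds whole-number counts for 24062 symbols, of which 3623 are 0 in every library.

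For each comparison, genes with at least 10 counts in at least 3 of its libraries were fitted with edgeR 4.0.16 (R 4.3.3, TMM scaling, robust quasi-likelihood fit) on the hearts compared, and p-values were adjusted by Benjamini-Hochberg over all genes tested. Values are log2 fold change ± SE, the SE being the fold change over the root of the F statistic. The difference between allele effects was an interaction contrast over 12 hearts. CPM per heart use TMM factors over all 12 libraries, and counts of groups that do not overlap use those of the comparison. Nothing states separate litters, so p-values measure the spread between these hearts. Replicate libraries differed beyond sampling noise in all pairs.

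Members, compartments and lists were chosen with earlier results of these data known. Named genes were 29 fixed members, up to 8 further members per direction and comparison by size of the log2 fold change among calls, 11 fixed pathway genes and up to 3 further per list. Some others (such as Hspa13, Dnajc27 and Dnajc28 outside their rule, Cct6a, Atf6, Lonp1) were named after their values were seen. Exon lengths and overlaps come from GENCODE vM21 (GRCm38) and promoter windows from RefSeq. The fit was tested on simulated data. Alternatives were DESeq2 1.42.0, other scalings and filters, a non-robust fit, all 12 libraries in 1 fit, a Y-linked covariate, a fold above 2, a replicate block and leaving out each heart.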

Additional observations from a re-analysis of the deposited data

Results flagged for a closer look

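The genotype effect differed between the adult KI/KI and P1 cKO comparisons for 4 of 68 chaperone genes, against 2.47% of all genes. The test was that of the difference itself (interaction contrast, edgeR, adjusted p under 0.05). Hsp90aa1 had a log2 fold change of 0.48 in KI/KI and 1.19 in cKO hearts, a difference of -0.72 (adjusted p = 0.0309). Dnajb11 was at 0.14 and 0.58, a difference of -0.45 (adjusted p = 0.048). Dnajb5 was at -0.47 (uncalled, adjusted p = 0.27) and 0.86, so that it had opposite signs, with a difference of -1.33 (adjusted p = 0.0493). Dnajc28 was at -0.23 and -1.66, a difference of 1.42 (adjusted p = 0.033). With 1 heart left out at a time, Hsp90aa1 and Dnajc28 passed in 4 of 12 fits, Dnajb11 in 3 and Dnajb5 in 1. Age, allele, the presence of Cre in cKO hearts and the cells affected differ together between these comparisons and cannot be told apart. The groups of 3 hearts are too small for a test of single outlying hearts.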

How the results depend on the processing

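Calls near the threshold moved with which hearts were included, and low genes such as Hspa1a rest on few counts. Leaving out 1 heart gave 3 to 18 called chaperone genes in cKO, 46 to 51 by age, 0 in KI/KI and 0 to 5 for the difference between effects. The corresponding medians ranged over 0.0056 to 0.082, 0.0464 to 0.1121 and -0.2133 to -0.0424 (cytosolic, reticulum, mitochondrial) in KI/KI, 0.1847 to 0.2074, 0.1588 to 0.36 and -0.0927 to 0.053 in cKO, and 0.4474 to 0.6622, 0.3709 to 0.462 and 0.6131 to 0.7955 by age. DESeq2 called 3 in KI/KI and 9 for the difference. Requiring a fold above 2 left 5 in cKO, 17 by age and 2 for the difference, and without a filter the difference had 2. Without a filter the cytosolic median by age was 0.39.

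With library totals alone the medians were 0.16 for the reticulum in KI/KI, 0.15 for the cytosol and 0.20 for the reticulum in cKO, and 0.17, 0.0191 and 0.30 by age. Among the genes named by rule, signs then reversed for Hspa5 (0.0656), Hspb6 (0.0669), Hspe1 (0.0412), Dnajb4 (0.0604) and Dnajb9 (0.0071) in KI/KI. They reversed for Hspa9 (-0.0633, and -3e-04 with filterByExpr), Hspb2 (-0.0225), Hspb6 (-0.0372), Hspb7 (-0.056), Hspd1 (-0.0069) and Dnajb6 (-0.0051) in cKO, and by age for Hspa2 (-0.21), Hsp90ab1 (-0.0447), Hsp90b1 (-0.26), Hspb1 (-0.17), Hspd1 (-0.31), Dnajb6 (-0.18) and Dnajb11 (-0.39). For the difference, Hspb6 became 0.10 and Dnaja3 0.10. Of these Hsp90ab1 lost its call, and Hsp90b1, Hspd1 and Dnajb11 were then called lower in adults (adjusted p = 0.0317, 0.00962 and 0.00104, edgeR). Other chaperone genes reversed too, by age Hspa4 (-0.0879) and Dnajb12 (-0.0462), which lost calls, and Dnajc13 (-0.3846) and Dnajc18 (-0.3165), which were then called lower. The cause was not tested beyond the shift of all genes that this scaling brings.

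Leaving out 1 heart also turned the sign of uncalled values near 0. In KI/KI the ranges included Hspa2 (-0.2138 to 0.0741), Hspa5 (-0.0828 to 0.0672), Hspb6 (-0.065 to 0.0748), Hspb7 (-0.0496 to 0.1545), Hspe1 (-0.0712 to 0.0236), Dnajb4 (-0.1411 to 0.1054) and Dnajb9 (-0.1401 to 0.0408). In cKO they included Hspa9 (-0.0423 to 0.0571), Hspb2 (-0.0889 to 0.1983), Hspb6 (-0.2544 to 0.2318), Hspb7 (-0.0905 to 0.1452), Hspd1 (-0.0074 to 0.1558), Dnaja1 (-0.1018 to 0.0341), Dnaja3 (-0.2204 to 0.01) and Dnajb6 (-0.0242 to 0.1489), by age Dnajb11 (-0.0616 to 0.0589), and for the difference Hspb6 (up to 0.2417), Hspb7 (-0.1224 to 0.1388), Hsph1 (-0.0151 to 0.1448) and Dnaja3 (up to 0.0649).

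Group members share replicate numbers across ages only. Deviations of same-numbered hearts from their group means had correlations of -0.0444, -0.1035 and -0.2396 for WT with floxed hearts. For KI/KI with cKO hearts they were -0.0287, 0.1404 and 0.0398. With 3 hearts in each group these values cannot decide whether the numbers mark a shared batch. The main fits used no pairing. With a replicate block 48 chaperone genes were called by age and 0 for the difference, where Hspb6 became 0.0086.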

Other observations

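Some chaperone genes varied widely between hearts of a group. Hspa12a, a distant Hsp70 relative, was at 91.6, 57.7 and 35.7 CPM in WT, 70.6, 29.0 and 60.8 CPM in KI/KI, 68.2, 58.6 and 66.2 CPM in floxed and 36.6, 29.9 and 59.4 CPM in cKO hearts, and passed the adjusted test in none of the 3 comparisons (edgeR), with an unadjusted p under 0.05 in the cKO comparison alone. Dnajc9, a histone chaperone, was at 18.3, 22.5 and 42.6 CPM in cKO hearts 4 to 6, the last being the heart with the highest sum of proliferation markers, and at 17.8, 17.5 and 24.1 CPM in floxed hearts.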
